A study of Mus musculus with 16 samples.

Results

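Glycolysis and hypoxia genes were followed across 8 lines of mouse *Sox2*-null ESCs profiled on Illumina bead arrays. The set lists 34 genes by name. They are the enzymes that turn glucose into pyruvate and lactate, the kinases and dehydrogenase that gate pyruvate, a regulator and the glycogen branch, and genes of the response to low oxygen. Of the 34, 30 had a probe under that name in the platform annotation, and 27 passed the detection filter and were among the 9303 genes tested. No probe carried the name of *Gpi1*, *Eno1*, *Ldhb* or *Ankrd37*, and *Pgm2*, *Bnip3* and *Higd1a* had a probe that did not pass the filter. Where a gene had several probes, the brightest of those that passed stood for it.

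All lines carry the strain background 129/Ola and lack endogenous *Sox2*, whose place is taken by a mouse *Sox2* transgene that doxycycline turns off. In 7 of the lines doxycycline (1 μg/mL) was given, and a human *SOX2* construct was inserted with PiggyBac and selected with hygromycin (300 μg/mL). These are 2 clones with wild-type *SOX2* (SWT clones 4 and 5), 2 with the S113 mutant (S113 clones 4 and 5) and 3 with the S98/102 mutant (S98/102 clones 1, 2 and 4). The sample labels name the last 3 *Sox2* 95 mutants, and they were read as S98/102 because the study profiled 3 clones of that mutant. The eighth line, TSS, was left without doxycycline, so that its mouse transgene stayed on. Each line is 1 clone or 1 culture on 2 arrays, and whether these hold separate cultures is not given, so the 2 arrays were averaged and the line was the replicate. Values are log2 levels after background correction and quantile normalization, and passing means an adjusted p under 0.05 (Benjamini-Hochberg) in a limma fit over all 9303 genes.

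Glycolysis splits glucose into pyruvate in the cytoplasm, and lactate dehydrogenase can turn the pyruvate into lactate while pyruvate dehydrogenase sends it to the mitochondria. Under low oxygen the prolyl hydroxylases EGLN1 and EGLN3 no longer mark HIF1A for degradation, and HIF1A then binds short elements with the core letters ACGTG or GCGTG and raises many glycolytic enzymes, pyruvate dehydrogenase kinases and collagen hydroxylases. Mouse ESCs use both glycolysis and respiration, and leaving the naive state is known to shift this balance. How RNA of these genes differs between ESCs rescued by wild-type or mutant *SOX2* is the question these comparisons address.

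Promoter sequence is shown for 4 members that carry the results below, *P4ha2* and *P4ha1*, which rose in S98/102 clones against SWT, and *Pdk3* and *Ddit4*, the falls that passed under the most settings. Each window holds 250 bases before and 50 after the annotated start (RefSeq, GRCm38.p6), printed 5′ to 3′ on the gene's strand, at chr11:54100674-54100973 (plus strand) for *P4ha2*, chr10:59323046-59323345 (plus strand) for *P4ha1*, chrX:93832101-93832400 (minus strand) for *Pdk3* and chr10:59951721-59952020 (minus strand) for *Ddit4*. Capitals mark every match to ACGTG or GCGTG on either strand, the letters of the hypoxia response element core, with overlapping matches counted.
P4ha2: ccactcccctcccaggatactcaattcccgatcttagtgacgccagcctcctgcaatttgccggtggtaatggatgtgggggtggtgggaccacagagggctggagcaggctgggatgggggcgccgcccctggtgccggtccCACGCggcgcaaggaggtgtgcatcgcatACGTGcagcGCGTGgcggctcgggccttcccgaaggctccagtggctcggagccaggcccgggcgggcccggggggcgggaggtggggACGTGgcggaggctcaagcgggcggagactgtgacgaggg
P4ha1: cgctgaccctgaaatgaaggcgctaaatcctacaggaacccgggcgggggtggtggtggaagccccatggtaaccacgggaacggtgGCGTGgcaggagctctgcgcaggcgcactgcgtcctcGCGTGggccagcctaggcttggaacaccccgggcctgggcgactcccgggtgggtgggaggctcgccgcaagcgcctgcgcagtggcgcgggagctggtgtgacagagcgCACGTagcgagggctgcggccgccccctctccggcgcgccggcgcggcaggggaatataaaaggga
Pdk3: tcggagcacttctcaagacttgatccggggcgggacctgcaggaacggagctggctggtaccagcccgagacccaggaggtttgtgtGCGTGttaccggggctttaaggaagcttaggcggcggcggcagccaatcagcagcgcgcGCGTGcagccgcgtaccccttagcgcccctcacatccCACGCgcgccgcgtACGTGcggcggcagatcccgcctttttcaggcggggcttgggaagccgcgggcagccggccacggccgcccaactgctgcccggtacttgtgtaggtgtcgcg
Ddit4: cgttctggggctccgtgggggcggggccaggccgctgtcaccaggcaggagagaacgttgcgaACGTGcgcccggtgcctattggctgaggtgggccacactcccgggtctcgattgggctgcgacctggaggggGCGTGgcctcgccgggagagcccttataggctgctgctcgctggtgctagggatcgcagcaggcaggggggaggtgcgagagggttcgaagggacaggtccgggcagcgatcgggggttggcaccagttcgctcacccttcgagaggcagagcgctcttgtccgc
The *P4ha2* window held 2 matches to ACGTG and 2 to GCGTG, that of *P4ha1* 1 and 2, that of *Pdk3* 1 and 3, and that of *Ddit4* 1 and 1. Of the 30 members on the array, 29 were matched to the promoter table by gene identifier (not *Ndrg1*), and 27 of the 29 (93.1%) had at least 1 match to either motif in a window of theirs. The same held for 67.2% of the 7590 tested genes with a window. Per window, either motif was found in 33 of the members' 40 windows (82.5%), in 61.3% of the windows of tested genes and in 43.8% of all 32851 windows. ACGTG alone was found in 62.5% of the members' windows, 25.3% of those of tested genes and 19.6% of all windows, and GCGTG in 55%, 49.8% and 32.4%. All 7 members that passed between S98/102 and SWT had a match, both where the gene rose and where it fell. The *Ldha* window at chr7:46845554-46845853 held 5 matches to ACGTG, and no match was found in the windows of *Eno2* or *Tpi1*.

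In S98/102 clones, the subunits of collagen prolyl 4-hydroxylase rose while single enzymes of glycolysis and of the pyruvate gate fell. Between S98/102 and SWT, 7 of the 27 members passed the test, 2 higher (*P4ha2*, *P4ha1*) and 5 lower (*Pfkp*, *Pdk3*, *Ddit4*, *Hif1a*, *Hk2*). Of all 9303 genes 23.0% passed in this comparison, 11.0% higher and 12.0% lower, so that the members' 25.9% lies near the background and is not a result about the set. The median log2 difference over the 27 members was -0.09, against -0.01 over all genes. The 20 members of glycolysis and of the pyruvate gate had 3 that fell, none that rose and a median of -0.23, and the 7 hypoxia members had 2 that rose, 2 that fell and a median of -0.03. Without SWT clone 4, no member passed and 2.78% of all genes did, and without SWT clone 5 there were 1 member and 2.93%. Without S98/102 clone 4 there were 3 members and 11.2%, and without either S113 clone 3 members and 15.5%.

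**Figure D1:**
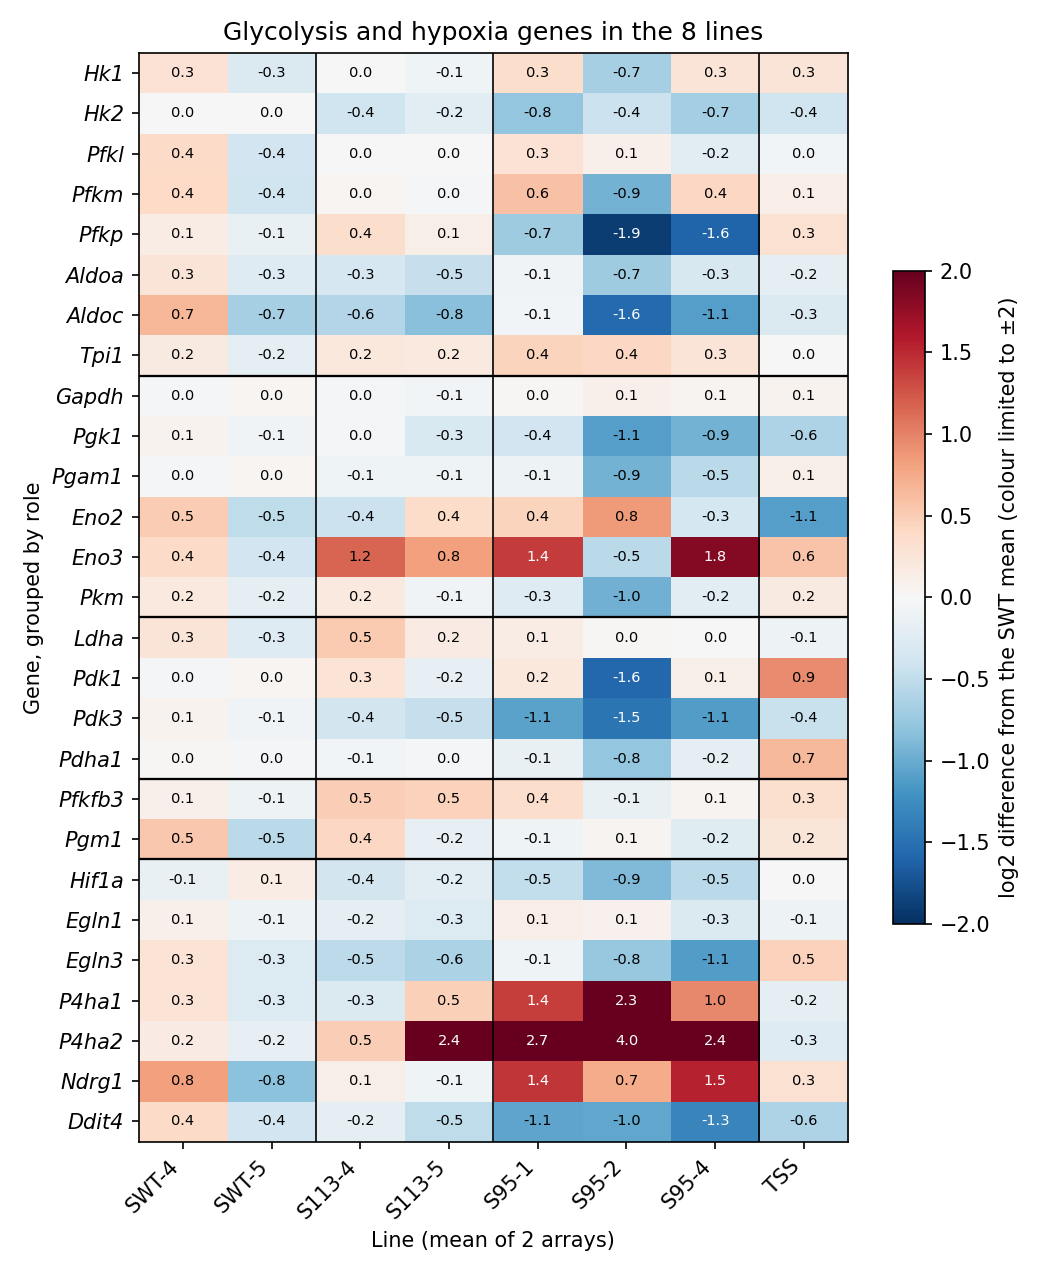
Log2 difference of each line (columns, mean of 2 arrays) from the SWT mean for the 27 tested members (rows, grouped by role), with red above and blue below the SWT mean and colours limited to ±2. S95 on the axis marks the S98/102 clones. *P4ha2* is 2.4 to 4.0 above the SWT mean in the S98/102 clones and 2.4 above it in S113 clone 5, and S98/102 clone 2 holds the lowest values of *Pfkp*, *Pdk1* and *Pkm*.

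The arrays were even in quality. The median intensity lay between 100.1 and 117.2, 48.6% to 52.5% of probes were detected on an array, and the 2 arrays of a line correlated across genes with r between 0.9942 and 0.9976. The probe for *Sox2*, the gene replaced, read 4.77 and 4.88 in the SWT clones, 7.66 and 8.02 in the S113 clones, 5.02 to 6.31 in the S98/102 clones and 6.37 in TSS, and since its position is not given it checks neither the construct nor the labels. Markers of some cell types moved with the groups. Of 15 tested markers of extraembryonic endoderm, 12 rose and none fell in S98/102 against SWT, and their summed linear level was 1950 and 4310 in the SWT clones, 5380 and 20500 in the S113 clones, 32200 to 75700 in the S98/102 clones and 3800 in TSS. Of 11 trophectoderm markers 8 rose (summed level 2540 to 3340 in SWT and 10300 to 16000 in S98/102), with *Elf5*, *Hand1* and *Tpbpa* detected on no array. The S98/102 sums follow the bright *Psg23* (mean 7.29 in SWT and 12.36 in S98/102) and *Krt8* (7.49 and 11.99). *Tfap2c* was lower, with means of 11.18 and 10.18, without passing. *Cdx2* was dim, with means of 4.34 and 5.46, and read 5.93 in TSS. Of 12 naive pluripotency markers 3 fell and 1 rose (39600 to 42600 and 18900 to 30600). Of 5 feeder markers 1 fell and none rose, with a median log2 difference of 0.51. Their sums (679 to 725 and 381 to 585) follow the bright *Vim*, the marker that fell. *Thy1* was also lower, with a mean of 6.429 in SWT and 5.655 in S98/102, without passing. *Col1a1*, *Col3a1* and *Dcn* differed by 0.60, 0.51 and 0.67 without passing, and *Postn* and *Twist2* were detected on no array. Of 4 tested markers of primitive streak and mesoderm none passed (summed level 198 to 236 in SWT and 119 to 236 in S98/102). Of 2 neuroectoderm markers 1 fell, *Otx2*, and none rose (707 to 882 and 336 to 412). The part of these shifts in the values below was not tested, and in bulk RNA fewer cells of a type and less RNA per cell cannot be told apart.

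*P4ha2*, a catalytic subunit of collagen prolyl 4-hydroxylase, varied most of all members over the 8 lines, with a range of 4.26 between the lowest and the highest line. Its log2 level was 6.79 and 6.48 in the SWT clones, 7.13 and 9.001 in S113 clones 4 and 5, 9.31, 10.64 and 9.07 in S98/102 clones 1, 2 and 4, and 6.37 in TSS. The S98/102 clones did not overlap the SWT clones, the highest value was that of clone 2, and the S113 clones lay far apart, with clone 5 next to the S98/102 clones. The SWT mean was 6.63 ± 0.22 (SD, n = 2 clones) and the S98/102 mean 9.67 ± 0.84 (SD, n = 3), a log2 difference of 3.04 (standard error 0.64) or 8.23-fold (limma adjusted p = 0.0209). Without SWT clone 4 the difference was 3.197 (limma adjusted p = 0.112) and without SWT clone 5 it was 2.88 (adjusted p = 0.132), so that the size held and the call did not. With no detection filter, where more genes were tested, the call was also lost (adjusted p = 0.0525), and without any single S98/102 or S113 clone it was kept. S113 clone 5 and S98/102 clone 2 also had the highest endoderm marker sums of their groups, 20500 and 75700, and the part of this in *P4ha2* was not tested.

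*P4ha1*, the other catalytic subunit measured here, read 5.47 and 4.91 in the SWT clones, 4.90 and 5.66 in the S113 clones, 6.56, 7.53 and 6.14 in the S98/102 clones and 4.98 in TSS. The S98/102 clones lay above all other lines, with clone 2 again highest, while S113 clone 5 lay above S113 clone 4. The 2 arrays of SWT clone 4 differed by 0.69, at 5.81 and 5.12. Against SWT the rise was 1.56 (standard error 0.44) or 2.95-fold (limma adjusted p = 0.0459). This call lies close to the threshold and was kept under 11 of 21 alternatives. The rise was 2.28 in the deposited log2 values (limma adjusted p = 0.0523) and 1.01 with an offset of 50 (limma adjusted p = 0.0677). With no detection filter adjusted p was 0.099, so that no member passed as higher there. Adjusted p was 0.0659 without either S113 clone, 0.14 and 0.235 without SWT clone 4 or 5 and 0.0632 without S98/102 clone 1 (limma).

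The remaining hypoxia members did not move one way. *Ddit4*, which is induced by low oxygen and other stress and restrains mTORC1 signalling, read 10.86 and 10.10 in the SWT clones, 10.29 and 9.96 in the S113 clones, 9.43, 9.44 and 9.16 in the S98/102 clones and 9.87 in TSS. All S98/102 clones were below all other lines. The fall of 1.13 on the log2 scale (standard error 0.25, 2.19-fold) passed (limma adjusted p = 0.0238). The call was lost without SWT clone 4, the higher control (a fall of 0.76, adjusted p = 0.132), and without S98/102 clone 4 (a fall of 1.04, adjusted p = 0.071). *Hif1a*, the oxygen-regulated subunit of the transcription factor, read 5.75 and 6.03 in the SWT clones, 5.52 and 5.68 in the S113 clones, 5.39, 5.01 and 5.34 in the S98/102 clones and 5.89 in TSS. The S98/102 clones were again the lowest lines, but the 2 arrays of SWT clone 4 differed by 0.47, at 5.98 and 5.51. Its fall of 0.64 (standard error 0.18, 1.56-fold, limma adjusted p = 0.0441) passed under 8 of 21 alternatives only. It measured 1.03 in the deposited log2 values and 0.38 with an offset of 50, and adjusted p was 0.0754 without either S113 clone, 0.122 and 0.236 without SWT clone 4 or 5 and 0.0863 without S98/102 clone 4. HIF1A is set mainly by its stability, which arrays do not measure.

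*Ndrg1*, a cytoplasmic protein raised by low oxygen, had 6.79 and 5.14 in the SWT clones, 6.08 and 5.87 in the S113 clones, 7.40, 6.71 and 7.51 in the S98/102 clones and 6.27 in TSS. SWT clone 4 lay above S98/102 clone 2, so the groups overlapped, and the difference of 1.24 (standard error 0.48, limma adjusted p = 0.103) did not pass. A second probe gave a like difference of 1.29. *Egln3*, a HIF prolyl hydroxylase, had a difference of -0.66 (95% interval -1.42 to 0.10, limma adjusted p = 0.169) and its highest level in TSS (8.02). *Egln1*, the main HIF prolyl hydroxylase, was detected on 11 of 16 arrays and differed by -0.03 (95% interval -0.44 to 0.39). *Bnip3*, a mitophagy receptor, was detected on no array. *Higd1a*, a mitochondrial protein, was detected on 1 array of S98/102 clone 1, both of S98/102 clone 4 and 1 of TSS, at levels of 4.70, 5.00 and 4.50, against 4.44 and 4.26 in the SWT clones.

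**Figure D2:**
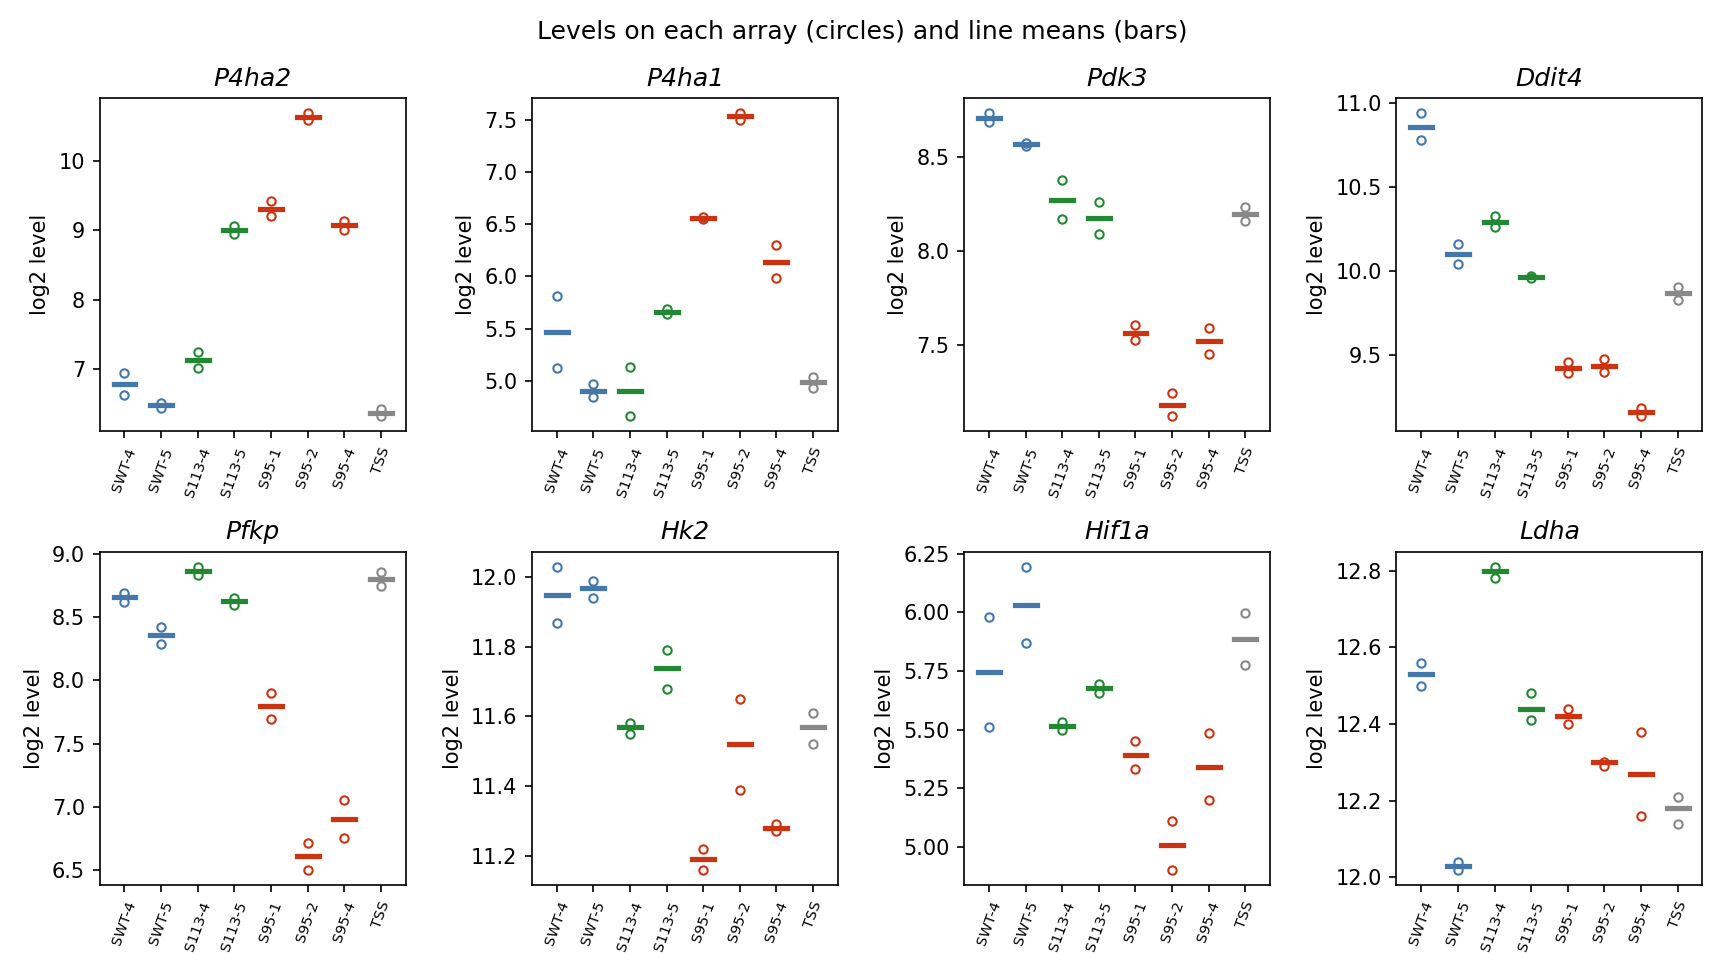
Log2 level of the 7 members that passed between S98/102 and SWT, and of *Ldha*, on each array (circles), with the mean of each line as a bar, for SWT (blue), S113 (green), S98/102 (red, S95 on the axis) and TSS (grey). In the panels of *P4ha2*, *P4ha1*, *Pdk3*, *Ddit4*, *Pfkp*, *Hk2* and *Hif1a* the S98/102 line means lie apart from those of SWT, whereas *Ldha* overlaps.

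In the upper part of glycolysis, 2 of 8 tested members fell (25%, against 12.0% of all genes) and none rose (against 11.0%). A share over 8 genes is not a result about this part of the pathway. *Hk2*, a hexokinase that phosphorylates glucose, read 11.95 and 11.97 in the SWT clones, 11.57 and 11.74 in the S113 clones, 11.19, 11.52 and 11.28 in the S98/102 clones and 11.57 in TSS. The SWT clones lay above every other line, and TSS was level with S113 clone 4. The fall against SWT was 0.63 (standard error 0.15, 1.55-fold, limma adjusted p = 0.0313). It passed under 12 of 21 alternatives, with adjusted p of 0.0553 without either S113 clone, 0.152 and 0.155 without SWT clone 4 or 5, and 0.0593 and 0.0876 without S98/102 clone 1 or 4. *Hk1*, the widely expressed hexokinase, differed by -0.02 (95% interval -0.82 to 0.78).

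The phosphofructokinases, which commit sugar to glycolysis, did not share a change. *Pfkp*, the platelet isoform, read 8.66 and 8.36 in the SWT clones, 8.86 and 8.62 in the S113 clones, 7.79, 6.61 and 6.91 in the S98/102 clones and 8.80 in TSS. All S98/102 clones lay below all other lines, by the most in clones 2 and 4. The fall was 1.40 against SWT (standard error 0.34, 2.64-fold, limma adjusted p = 0.031), and it passed under 12 of 21 alternatives. With a median shift adjusted p was 0.0533 and with no detection filter 0.0675 (limma). A second probe that passed the filter differed by -0.54, and with the mean of both probes the fall was 0.97 (adjusted p = 0.0657). Adjusted p was 0.0577 without either S113 clone, 0.178 and 0.128 without SWT clone 4 or 5 and 0.0854 without S98/102 clone 4. The liver isoform *Pfkl* differed by 0.05 (95% interval -0.56 to 0.67) and the muscle isoform *Pfkm* by 0.02 (95% interval -1.12 to 1.16), with other probes at 0.35 for *Pfkl* and at -0.35 and -0.22 for *Pfkm*.

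The aldolases *Aldoa* and *Aldoc*, which split fructose bisphosphate, differed by -0.37 and -0.91 with adjusted p of 0.284 and 0.231 (limma). For *Aldoc* the SWT clones themselves read 7.55 and 6.23, and S98/102 clone 1 (6.83) lay between them. *Tpi1*, which interconverts the triose phosphates, gave no single direction, since its 3 probes differed by 0.37, 0.92 and -0.94 between S98/102 and SWT. Its brightest probe did not pass (limma adjusted p = 0.129).

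None of the 6 tested members of lower glycolysis passed, where 23.0% of all genes did. *Gapdh*, which oxidizes glyceraldehyde phosphate, varied least of the members, with 0.16 between its lowest and highest line, and a second probe differed by 0.01 between S98/102 and SWT. *Pgk1*, the first enzyme of the pathway to make ATP, read 5.83 and 5.70 in the SWT clones, 5.75 and 5.46 in the S113 clones, 5.39, 4.67 and 4.82 in the S98/102 clones and 5.15 in TSS. Its difference of -0.81 (standard error 0.24, limma adjusted p = 0.0503) lay just short of the threshold. The probe was dim, detected on 15 of 16 arrays. *Pgam1*, a phosphoglycerate mutase, and *Pkm*, the pyruvate kinase of most tissues, differed by -0.53 and -0.48 (limma adjusted p = 0.144 and 0.222), with clone 2 lowest in both, at 8.74 and 10.56.

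The enolases *Eno2*, the neuronal form, and *Eno3*, the muscle form, differed by 0.32 and 0.90 (limma adjusted p = 0.632 and 0.349). *Eno3* read 8.53 and 8.98 in S98/102 clones 1 and 4 but 6.60 in clone 2, below both SWT clones (7.52 and 6.75). The S98/102 clones therefore stood on both sides of SWT for this gene.

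At the pyruvate branch point, 1 of 4 tested members fell (25%, against 12.0% of all genes). A share over 4 genes is not a result about the branch point. *Pdk3*, a kinase that phosphorylates and inhibits pyruvate dehydrogenase, read 8.71 and 8.57 in the SWT clones, 8.27 and 8.18 in the S113 clones, 7.56, 7.18 and 7.52 in the S98/102 clones and 8.20 in TSS. The groups formed 3 tiers without overlap, SWT highest and S98/102 lowest, with TSS at the level of S113. Against SWT the fall was 1.22 (standard error 0.17, 2.32-fold, limma adjusted p = 0.00675), and it passed under 19 of 21 alternatives, the most of the 7. The exceptions were the fits without SWT clone 4 (adjusted p = 0.0659) and without SWT clone 5 (adjusted p = 0.0527).

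*Pdk1*, the kinase best known as a HIF target, read 8.88 and 8.95 in the SWT clones, 9.19 and 8.76 in the S113 clones, 9.13, 7.35 and 9.03 in the S98/102 clones and 9.86 in TSS. S98/102 clone 2 alone was low, TSS was highest, and the difference of -0.41 did not pass (limma adjusted p = 0.583). *Pdha1*, the X-linked catalytic subunit of pyruvate dehydrogenase, was also lowest in clone 2 (9.90) and highest in TSS (11.32), and differed by -0.37 (limma adjusted p = 0.224). *Ldha*, which makes lactate, read 12.53 and 12.03 in the SWT clones, 12.80 and 12.44 in the S113 clones, 12.42, 12.30 and 12.27 in the S98/102 clones and 12.18 in TSS. The S98/102 clones lay between the SWT clones, and the difference was 0.05 (95% interval -0.42 to 0.52). Of the regulator and the glycogen branch, *Pfkfb3*, which makes the activator of phosphofructokinase, was detected on 8 of 16 arrays and differed by 0.09. *Pgm1*, a phosphoglucomutase, differed by -0.09, and *Pgm2* was detected on no array.

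**Figure D3:**
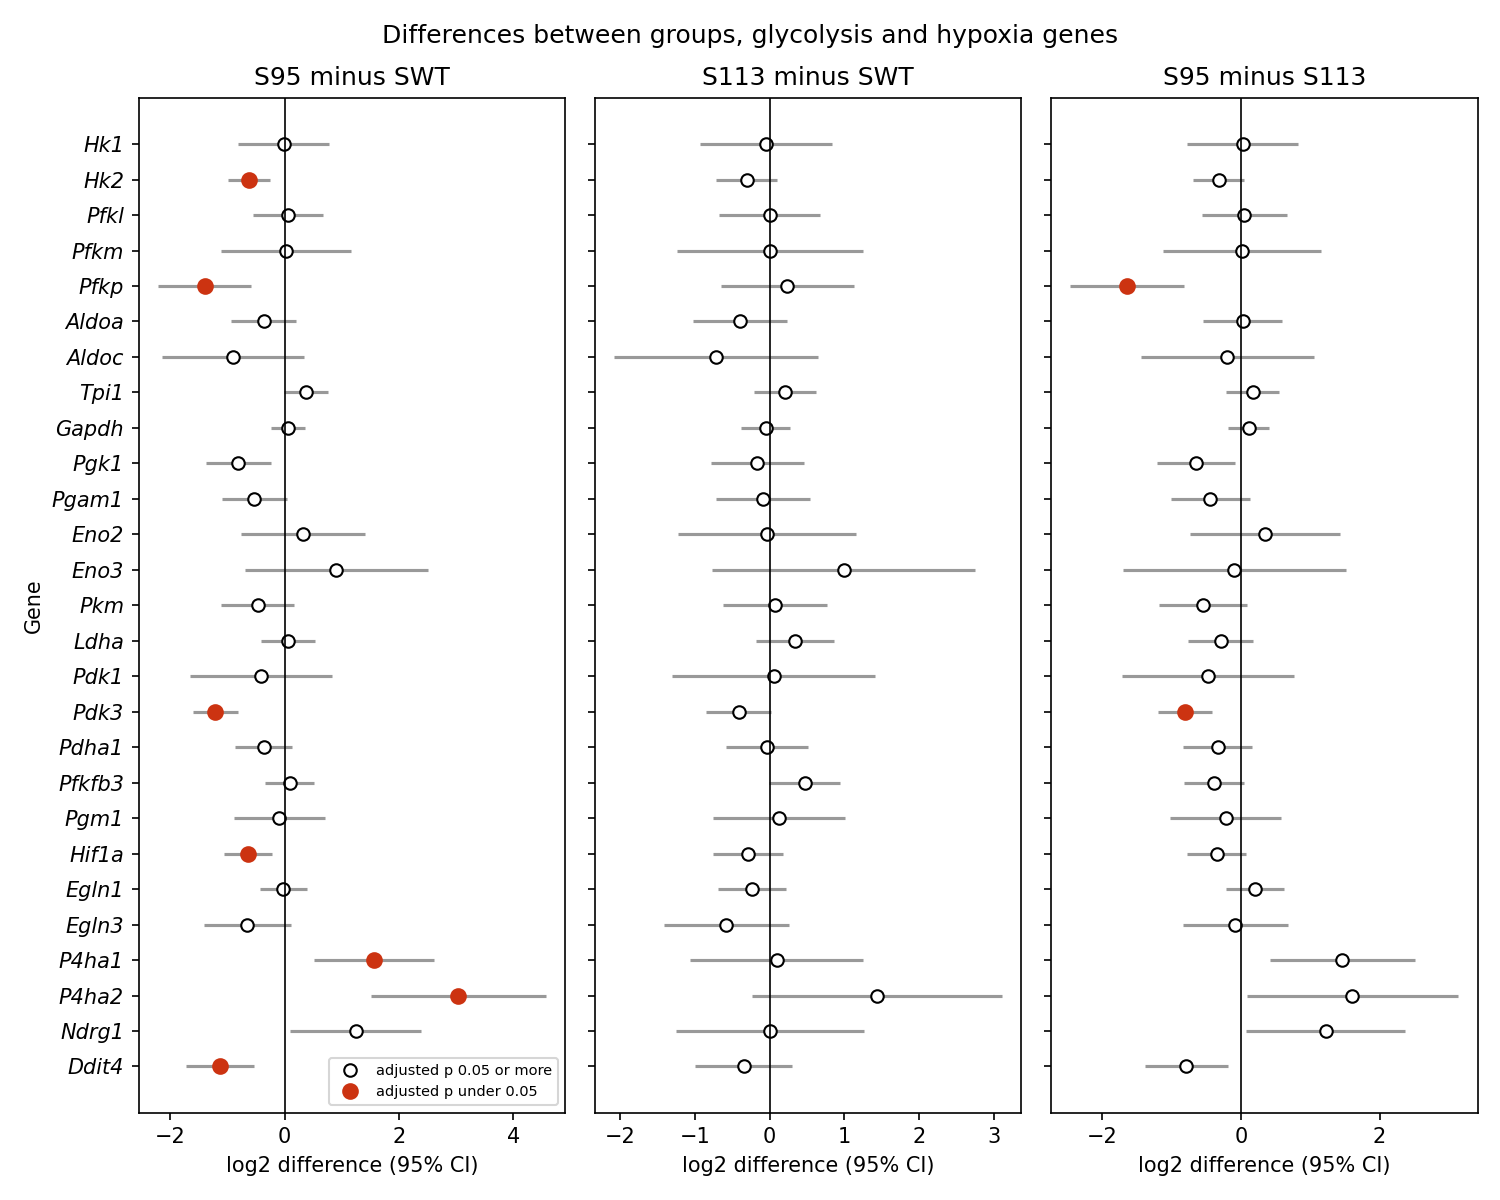
Log2 difference and 95% confidence interval for each tested member in S98/102 minus SWT, S113 minus SWT and S98/102 minus S113 (limma), with S98/102 written S95, filled where the adjusted p was under 0.05. The filled points are 7 in the first panel, none in the second, and *Pfkp* and *Pdk3* in the third.

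Between S98/102 and S113, 2 of 27 members passed, both lower in S98/102, where 9.24% of all genes passed. *Pfkp* was lower by 1.64 on the log2 scale (standard error 0.34, limma adjusted p = 0.0365) and *Pdk3* by 0.80 (standard error 0.17, limma adjusted p = 0.0356). Both calls were lost without either S113 clone (adjusted p of 0.236 and 0.13 for *Pfkp*, and of 0.23 and 0.13 for *Pdk3*), without either SWT clone (0.0819 and 0.0813) and without S98/102 clone 4 (0.0995 and 0.0854). *P4ha1* and *P4ha2*, higher by 1.47 (95% interval 0.42 to 2.52) and 1.61 (95% interval 0.08 to 3.13), did not pass (limma adjusted p = 0.0812 and 0.141). *Ddit4* at -0.79 did not pass either (limma adjusted p = 0.0904). The comparisons with SWT share the SWT clones, and those with S113 the S113 clones.

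Between S113 and SWT none of the 27 members passed, as none of the 9303 genes did (0% called, with 862 genes at an unadjusted p under 0.05 and the smallest adjusted p at 0.071, limma). The median over the members was -0.03. The largest differences were those of *P4ha2* (1.43, 95% interval -0.24 to 3.10), *Eno3* (0.99, 95% interval -0.77 to 2.74) and *Aldoc* (-0.72, 95% interval -2.08 to 0.64). *P4ha2* alone differed by 2-fold or more, with clone 5 at 2.37 and clone 4 at 0.50 above the SWT mean. *Pdk3* differed by -0.41 (95% interval -0.84 to 0.02), with both S113 clones below both SWT clones. Chromosome 8 was lower by a median of 0.29 in S113 clone 5, and the 1 tested member on it, *Egln1*, read 4.64 there and 4.72 in clone 4.

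TSS, with 1 line, was assumed to vary like the other groups, and against SWT none of the 27 members passed, as none of all genes did (0% called, with 914 genes at an unadjusted p under 0.05 and the smallest adjusted p at 0.324, limma). The median over the members was 0.00. TSS held the lowest level of *Eno2* among the 8 lines (4.77, a difference of -1.10, 95% interval -2.55 to 0.36). It held the highest levels of *Pdk1* (difference 0.95, 95% interval -0.72 to 2.61), *Pdha1* (0.65, 95% interval -0.02 to 1.32) and *Egln3* (0.46, 95% interval -0.56 to 1.48), and of *Pgam1* (9.80). Each of these intervals includes 0.

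The spread between SWT clones was wider for these genes than for most. The median SD between the SWT clones was 0.29 over the 27 members and 0.11 over all genes, while in S113 it was 0.12 for both and in S98/102 it was 0.38 and 0.23. S113 clone 4 lay above S113 clone 5 in 20 of 27 members (74.1%, against 51.3% of all genes), by a median of 0.08. SWT clone 4 lay above SWT clone 5 in 22 of 27 members (81.5%, against 51.5% of all genes), with a median difference of 0.40 against 0.01. Both arrays of clone 4 lay above both arrays of clone 5 in 18 members (66.7%, against 26.3% of all genes), and the opposite held for 1, *Gapdh* (3.7%, against 23.3%). With 1 line on each side there is no test, and these shares describe only the clones compared.

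The largest of these differences were 1.65 for *Ndrg1*, 1.32 for *Aldoc*, 1.09 for *Pgm1* and 1.02 for *Eno2*, all above the 95th percentile of all genes (0.48). On the arrays, *Ndrg1* read 6.83 and 6.76 in clone 4 and 5.29 and 4.99 in clone 5. The difference ran through upper glycolysis (higher in 7 of 8, median 0.55) and the hypoxia members (6 of 7, median 0.54), and was small in the pyruvate gate (3 of 4, median 0.10). *Hk2*, *Pdk1*, *Pgam1*, *Gapdh* and *Hif1a* were the 5 members not higher in clone 4. Of the list of other hypoxia genes, 28 of 37 were higher in clone 4 (median 0.12). Of the other glycolysis genes 9 of 22 were (median -0.04), and the share over all genes was 51.5%. These lists, like the members, were chosen with earlier results of these data known. The 2 SWT clones also differed in extraembryonic endoderm markers. On both arrays of clone 4, 12 of 15 were lower than on those of clone 5 (median -1.37), against 23.3% of all genes. The part of this in the members' difference was not tested.

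**Figure D4:**
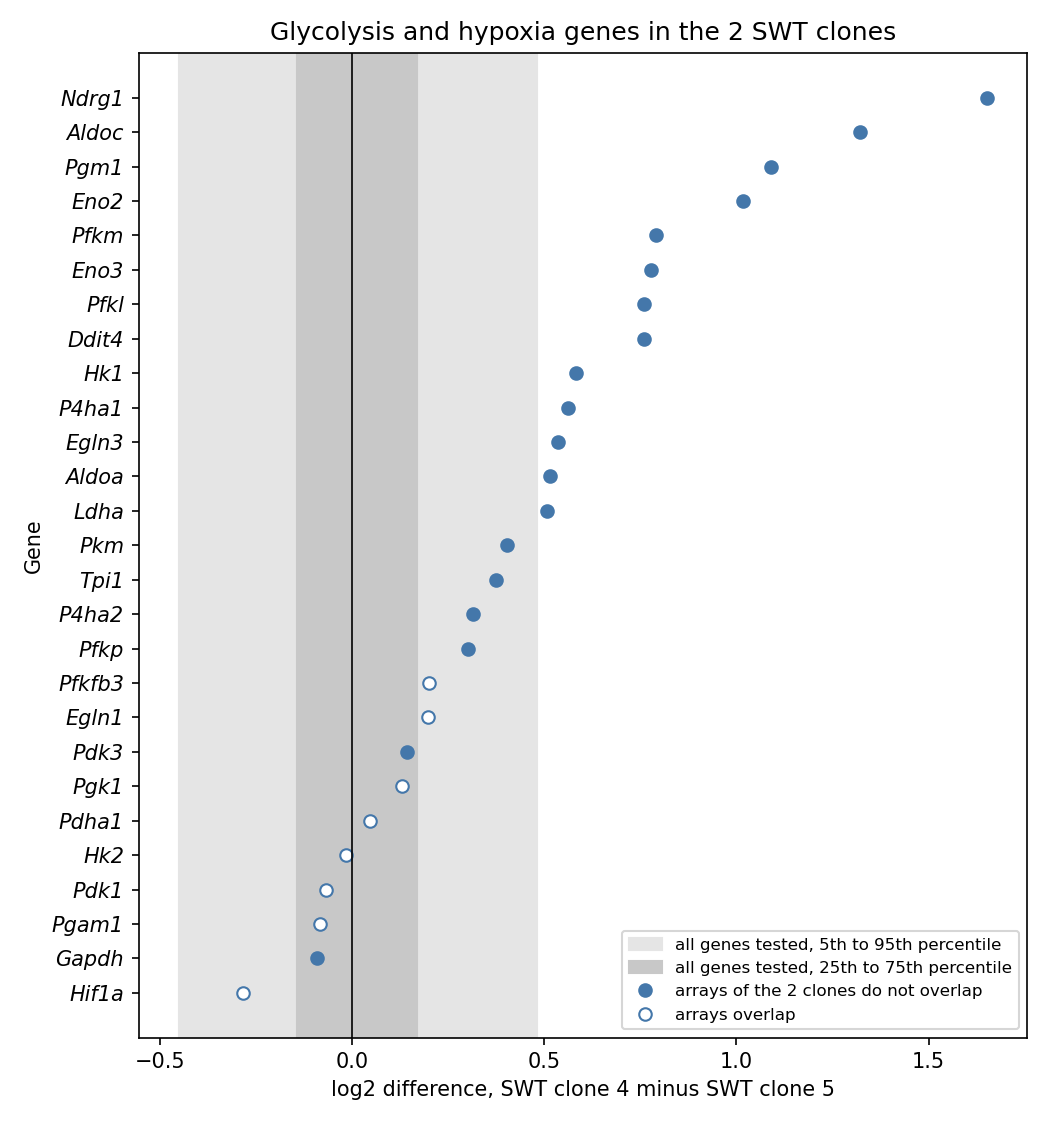
Log2 difference between SWT clones 4 and 5 for each tested member, filled where the arrays of the clones do not overlap, with the spread of all 9303 genes in grey (5th to 95th and 25th to 75th percentile). Of the 27 members 22 lie to the right of 0, and *Ndrg1*, *Aldoc*, *Pgm1* and *Eno2* exceed 1.

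The S98/102 clones differed among themselves as well. The members' median difference from the SWT mean was 0.02 in clone 1, -0.67 in clone 2 and -0.23 in clone 4, against -0.01, -0.06 and 0.00 over all genes. Clone 2 was the lowest of the 3 in 13 of the 20 glycolysis and pyruvate members (65%, against 46.3% of all genes) and the highest in 4 (20%, against 39.2%). It was the lowest for *Pdk1*, *Pfkm*, *Eno3* and *Aldoc* and the highest for *P4ha1* and *P4ha2*. Clone 2 had the lowest naive pluripotency sum of the 8 lines (18900, against 30600 and 28800 in clones 1 and 4) and the highest endoderm sum, and their part in its glycolysis levels was not tested. Clone 1 lay above clone 4 in 22 of 27 members (81.5%, against 46.9% of all genes), by a median of 0.18. Clones 1 and 4 share lower levels along chromosome 14 (medians of -0.36 and -0.33), on which no member lies, and with both averaged as 1 line 4 members passed, against 17.1% of all genes.

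The wider pathway moved in both directions too. Of 38 further genes of glucose uptake, glycolysis, gluconeogenesis and pyruvate control, 22 were tested, of which 3 rose and 3 fell between S98/102 and SWT (13.6% each, against 11.0% and 12.0% of all genes), with a median of 0.00. *Hkdc1*, a hexokinase relative, rose from 5.36 ± 0.95 (SD, n = 2 clones) to 9.87 ± 0.67 (SD, n = 3), by 4.50 (limma adjusted p = 0.0103). It read 8.05 in S113 clone 5 and 5.86 in S113 clone 4, the same order as *P4ha2*. *Fbp2*, a fructose bisphosphatase of muscle that runs the phosphofructokinase step in reverse, rose by 2.93 (limma adjusted p = 0.0188), with SWT clones at 6.80 and 8.97 and a difference of 1.84 without clone 4. *Pfkfb4*, which makes or removes the activator of phosphofructokinase, rose by 1.06 (limma adjusted p = 0.0114).

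Those that fell were *Pdp1*, a phosphatase that reactivates pyruvate dehydrogenase (by 1.56, limma adjusted p = 0.00349), *Pdk4*, a further kinase of that enzyme (by 1.41, limma adjusted p = 0.0441), and *Slc2a1*, the glucose transporter GLUT1 (by 0.71, limma adjusted p = 0.0336). *Pdp1* read 6.13 and 6.38 in the SWT clones, 5.95 and 5.73 in the S113 clones, 4.75, 4.50 and 4.83 in the S98/102 clones and 5.57 in TSS, without overlap between the groups. A kinase and a phosphatase acting on the same enzyme, *Pdk3* and *Pdp1*, were both lower in S98/102 than in SWT and than in S113 (*Pdp1* against S113 by 1.15, limma adjusted p = 0.0172). *Pdp2*, a further and brighter phosphatase of that enzyme, did not pass against SWT. It read 10.32 and 10.18 in the SWT clones and 10.46, 9.25 and 10.54 in S98/102 clones 1, 2 and 4. The fall of *Pdp1* against SWT passed under all 20 alternatives that tested it, but its size did not hold, at 2.77 in the deposited log2 values and 0.88 with an offset of 50. The probe was detected on 13 of 16 arrays, 3 of the 6 S98/102 arrays among them, and was not tested where detection on all arrays was required.

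Of 48 further hypoxia-responsive genes 37 were tested, of which 4 rose and 2 fell (10.8% and 5.41%, against 11.0% and 12.0% of all genes), with a median of 0.22. *Plod1*, a collagen lysyl hydroxylase, rose by 1.21 (limma adjusted p = 0.0119) and *P4hb*, the partner subunit of P4HA1 and P4HA2, by 1.05 (limma adjusted p = 0.0304). *P4hb* read 11.49 and 11.40 in the SWT clones, 11.73 and 12.10 in the S113 clones, 12.27, 12.96 and 12.24 in the S98/102 clones and 11.57 in TSS, so that clone 2 was highest and S113 clone 5 was above S113 clone 4, as for *P4ha1* and *P4ha2*. *Cited2*, which competes with HIF1A for its coactivators, rose by 1.59 (limma adjusted p = 0.00603). *Car12*, a carbonic anhydrase, was detected on none of the 4 SWT arrays and on all 6 S98/102 arrays. Its S98/102 mean was at least 1.6-fold higher than SWT, taking the lowest detected signal of each SWT array as the bound. The limma adjusted p of 0.0306 belongs to the difference of 0.993, which uses the undetected SWT values, and the bound was not tested. *Kdm3a*, a histone demethylase induced by HIF, fell by 1.11 (limma adjusted p = 0.00765), and *Ppp1r3c*, which targets a phosphatase to glycogen, by 1.61 (limma adjusted p = 0.0309). *Ppp1r3c* read 7.14 and 5.85 in the SWT clones, and without SWT clone 4 its fall was 0.97 (limma adjusted p = 0.149). *Kdm3a* was highest in TSS (9.92) and between 8.01 and 8.34 in the S98/102 clones. No gene of either list passed between S113 and SWT or between TSS and SWT, and between S98/102 and S113 *Plod1* and *Cited2* were higher and *Pdp1* and *Kdm3a* lower. With an offset of 50, which draws low levels together, the differences from SWT were 0.698 for *Pfkfb4*, -0.885 for *Pdk4*, 0.935 for *Cited2*, 0.769 for *Plod1*, 0.475 for *Car12* (limma adjusted p = 0.0503) and -0.992 for *Ppp1r3c*, and those from S113 0.615 for *Cited2*, 0.757 for *Plod1* and -0.611 for *Pdp1*. In the deposited log2 values they were -2.23 for *Pdk4* (limma adjusted p = 0.0864), 2.67 for *Cited2* and -2.60 for *Ppp1r3c* against SWT, and -2.21 for *Pdp1* against S113. Of the 12 calls against SWT, 11 (all but *Pdp1*) were lost without SWT clone 4 (adjusted p of 0.0515 to 0.247), 8 without SWT clone 5 (0.0524 to 0.159), 5 without S98/102 clone 4, 4 without either S113 clone and 1 (*Car12*) without S98/102 clone 1. Of the 4 calls against S113, 4 were lost without either S113 clone or S98/102 clone 4, and 3 (all but *Pdp1*) without either SWT clone.

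**Figure D5:**
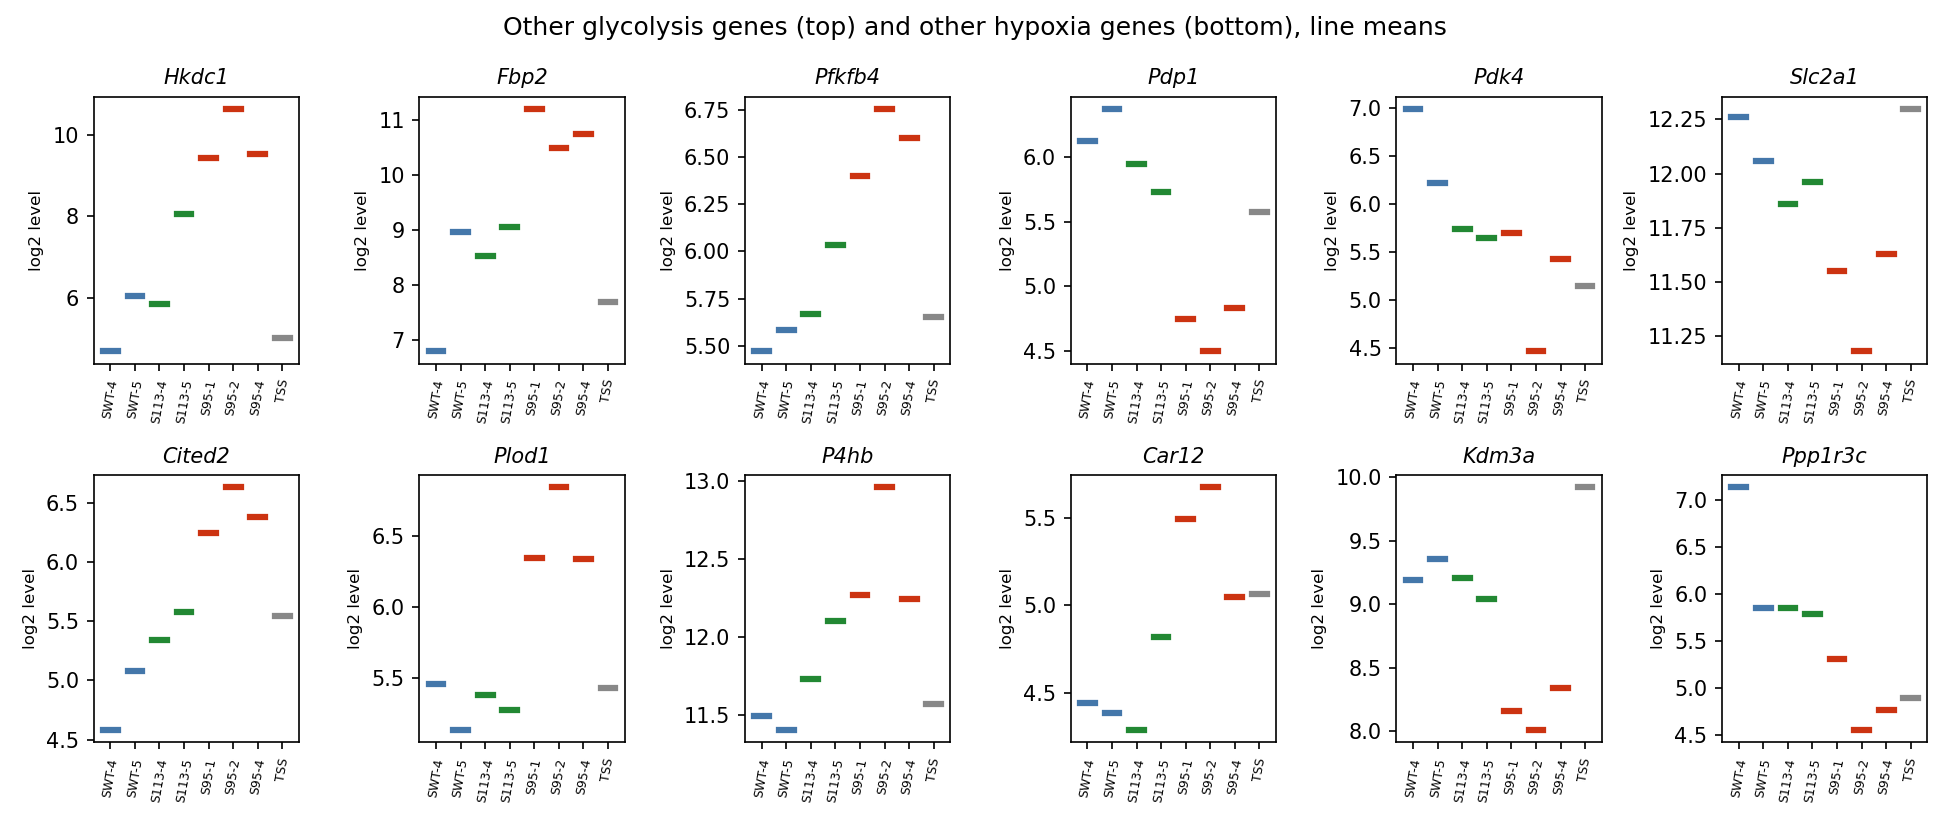
Log2 level (mean of 2 arrays) in each of the 8 lines for the 6 other glycolysis genes (top row) and 6 other hypoxia genes (bottom row) that passed between S98/102 and SWT, with SWT in blue, S113 in green, S98/102 in red (S95 on the axis) and TSS in grey. *Hkdc1* and *P4hb* are higher in S113 clone 5 than in S113 clone 4, and *Pdp1* and *Kdm3a* are lowest in the 3 S98/102 clones.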

How the data were processed

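Total RNA of 8 lines of *Sox2*-null ESCs was measured on Illumina mouse bead arrays (2 arrays for each line). The authors deposited scanner intensity values for each probe, summarized with BeadStudio 3.2 and not normalized, with a detection p-value for each probe deposited beside them. A table of normalized log2 values was deposited too, for which their notes name RMA and lumi without assigning the steps. Background correction from detection p-values, an offset of 16, log2 transformation and quantile normalization were made with neqc (limma 3.58.1, R 4.3.3). A probe was kept if both arrays of 2 or more lines detected it (p under 0.05). Of 25697 probes, 23978 name 1 gene in the platform annotation, and 23962 were matched by Entrez identifier to RefSeq. The kept probes, brightest for each gene, gave 9303 genes. Arrays were averaged per line, and 8 lines entered 1 limma fit (lmFit, eBayes, two-sided) with a mean per group and Benjamini-Hochberg adjustment over all genes. The fit was tested on simulated data. The number of clones limits the precision. p-values measure the spread between these clones.

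The members and the lists were chosen with earlier results of these data known. Every member is named, with the 6 genes of each wider list with the smallest p among those that passed between S98/102 and SWT. Markers were summed as linear levels over the tested genes of a list. Promoter windows came from RefSeq (GRCm38.p6) and were searched for ACGTG and GCGTG on both strands. Alternatives were the deposited log2 values, an offset of 50, a median shift, no detection filter or detection on all 16 arrays, the mean of a gene's probes, arrays as samples (independent, or blocked by line at random, either alone or together with a replicate block), eBayes with trend and robust, subtraction of chromosome medians, fits without TSS or of only the groups compared, and leaving out each clone. Averaging S98/102 clones 1 and 4 was added after seeing the data. Slide could not be tried as a block, since no slide is named in the sources used here.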

Additional observations from a re-analysis of the deposited data

Results flagged for a closer look

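Of 81 gene and group combinations tested for a single array far from the rest of its group, 1 stood apart. Chance flags about 1 in 20 groups of independent values, and the 2 arrays of a clone are not independent, so that the chance rate for these groups is not known. For *Pgk1* the first array of S113 clone 4 read 6.03, while the other S113 arrays read 5.48 or less, so that the gap was 0.97 of the group's range.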

How the results depend on the processing

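No called gene changed direction under an alternative run. Between S98/102 and SWT, 7 members passed (23.0% of all genes), against 3 with no detection filter (11.3%), 3 with only the groups compared (15.5%), 15 with arrays as independent samples (57%), which counts 2 arrays of a clone as separate replicates, 4 with clones 1 and 4 averaged (17.1%, added after seeing the data), and 0 to 9 on leaving out a clone (2.78% to 34.3%). The 0 and 1 came without SWT clones 4 and 5, and 3 without either S113 clone or S98/102 clone 4. Between S98/102 and S113, 2 passed (9.24%), against 0 in the deposited log2 values (6.84%) and with only the groups compared (2.63%), 1 with a median shift (10.2%), no detection filter (3.97%), the mean of probes (8.72%) or clones 1 and 4 averaged (2.77%), 6 with the line as a random block (24.2%, or 23.1% with a replicate block), 11 with independent arrays (49.4%), and 0 to 3 on leaving out a clone (0.107% to 19%). Between S113 and SWT, and TSS and SWT, 0 passed, against 1 and 2 with independent arrays (11.8% and 13%), and 0 throughout on leaving out a clone. Except as given, the causes were not tested. Of 3201 single-gene values, 2986 stayed on their side of the threshold, 140 lost and 75 gained a call. These values include genes and comparisons without a call in the main fit, which had none to lose. The share that stayed therefore does not measure how firm the calls are. Replicate numbers did not pair the lines (r between -0.193 and 0.22 over 28 pairs), and with the replicate block 9 members passed between S98/102 and SWT (34.1%), against 10 without it (34.9%). Probes not detected on all 16 arrays (*Pgk1*, *Egln1*, *Pfkfb3*, *Pdp1*, *Hkdc1*, *Pdk4*, *Cited2*, *Car12*, *Ppp1r3c*) are limited by their signal over background.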
